A study of Mus musculus with 32 samples.

Results

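Chromatin accessibility in late 1-cell mouse embryos was described here as 2 lists of ATAC-seq peaks, 1 from embryos cultured with the CBP/p300 inhibitor A-485 and 1 from embryos cultured with its solvent DMSO. Lines of a list with the same position were joined into 1 peak at the largest of their fold enrichments, which left 10214 peaks in the DMSO list and 7094 in the A-485 list, or 17308 of the 58713 peaks in the 4 ATAC-seq lists of the study. The embryos came from wild-type B6D2F1/J oocytes and sperm (mice of 6 to 8 weeks). A-485 was present at 10 µM from 4 to 20 h after insemination, and the hour at which late 1-cell embryos were taken is not given in the sources used here. Each list covered 2 replicate libraries, and the ATAC-seq lists of early 2-cell embryos and the RNA-seq of zygotes and early 2-cell embryos (2 libraries per group, the same DMSO or A-485 culture) were used beside them. No allele or agent other than A-485 or DMSO is given for these embryos.

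CBP and p300 are a pair of closely related enzymes that put acetyl groups on histones, among them lysine 27 of histone H3, a mark of active promoters and enhancers. A-485 blocks their catalytic site and leaves the proteins in place. ATAC-seq uses a transposase that inserts into DNA not covered by nucleosomes, so a peak marks an accessible stretch, most often a promoter, an enhancer or a site held open by a bound protein such as CTCF. The late 1-cell embryo is at the minor phase of zygotic genome activation (ZGA), when the first embryonic transcripts appear, and the major phase follows in the 2-cell embryo. DUX, a homeobox factor, is an early activator, and OBOX homeobox factors and the nuclear receptor NR5A2 are further regulators of that period.

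A peak was called lost when it lay in the DMSO list with no A-485 peak overlapping by at least 1 bp, gained in the reverse case, and shared otherwise. A promoter peak had an annotated transcript start no more than 1 kb from its nearest edge, and a distal peak had none up to 2.5 kb. The peak strength given throughout is the fold enrichment over background in the authors' peak lists. Because there was 1 list per condition, no difference between the lists could be set against the spread between replicates. The 95% Wilson intervals given with shares cover the counting of peaks only, and a peak that fell just below the threshold of a list counts as lost or gained whatever the size of its change in signal.

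5 stretches of 200 bases each show what the classes look like, read from GRCm38. Capitals mark matches to motifs named further on: the GC box GGGCGG of SP and KLF factors, the CACCC box, the GGATTA core of OBOX and related homeobox factors, the NR5A site TCAAGGNCA, the E-box CACGTG, and the CTCF core. The first is the promoter of Cbwd1 (chr19:24961611-24961810, minus strand, the 200 bases before the start site), with 14 CpG dinucleotides. Its fold enrichment was 16.8 in DMSO and 17.5 in A-485. By the DMSO value it led the shared promoter peaks of protein-coding genes whose names are not Gm or Rik numbers. The next is the promoter of Gm5662, a lost peak of a gene of the 2-cell stage (chr12:88274501-88274700, minus strand, fold enrichment 10.3 in DMSO), which holds 2 copies of GGATTA and 3 CpG dinucleotides. The remaining 3 are distal and intergenic and are printed on the plus strand. The GGATTA example is a lost peak with 3 copies (chr13:19966687-19966886, 28882 bp from a start site of Gm5446, fold enrichment 12.6). The NR5A example is a lost peak (chr6:35757966-35758165, nearest gene Gm42931, fold enrichment 9.33). The CTCF example is a gained peak (chr11:27753696-27753895, nearest gene Gm12079, fold enrichment 9.16). Stronger distal peaks with GGATTA (lost, near Slc13a1, 12.7) and with the CTCF core (gained, near Psen2, 9.57) are not printed. In the NR5A sequence an E-box overlaps the site.
Cbwd1 promoter: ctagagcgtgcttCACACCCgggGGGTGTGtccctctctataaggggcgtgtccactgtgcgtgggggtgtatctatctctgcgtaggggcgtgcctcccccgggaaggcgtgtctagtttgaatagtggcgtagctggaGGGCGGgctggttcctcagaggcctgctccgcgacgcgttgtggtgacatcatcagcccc
Gm5662 promoter: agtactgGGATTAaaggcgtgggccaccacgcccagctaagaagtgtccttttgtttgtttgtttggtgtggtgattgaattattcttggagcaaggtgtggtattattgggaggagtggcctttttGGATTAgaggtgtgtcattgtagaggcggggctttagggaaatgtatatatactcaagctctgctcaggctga
Lost distal peak with GGATTA: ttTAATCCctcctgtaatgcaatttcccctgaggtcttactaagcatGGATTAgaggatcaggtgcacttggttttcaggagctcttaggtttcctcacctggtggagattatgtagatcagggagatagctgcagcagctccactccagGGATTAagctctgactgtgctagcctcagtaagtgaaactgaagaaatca
Lost distal peak with the NR5A site: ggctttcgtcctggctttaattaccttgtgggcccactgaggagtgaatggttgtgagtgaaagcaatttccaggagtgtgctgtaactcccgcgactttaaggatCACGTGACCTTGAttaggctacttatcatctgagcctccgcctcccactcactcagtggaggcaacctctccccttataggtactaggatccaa
Gained distal peak with the CTCF core: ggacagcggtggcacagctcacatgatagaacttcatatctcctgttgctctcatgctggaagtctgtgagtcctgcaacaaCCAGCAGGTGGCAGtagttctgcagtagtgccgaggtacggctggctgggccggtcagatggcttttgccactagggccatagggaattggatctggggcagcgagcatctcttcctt

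Of the DMSO peaks, 5231 were lost (51.2%, 50.2 to 52.2), and of the A-485 peaks 2130 were gained (30.0%, 29.0 to 31.1). The DMSO list was also cut to its 7094 strongest peaks, the size of the A-485 list (values in the last section). At equal size the lost and gained shares must come out nearly equal, so their closeness there carries no information. Both shares count presence in a list and do not measure a net loss of signal. From its signal maps, the study describes accessibility at this stage as largely unaffected by the inhibitor. The lost share differed with the place of a peak. Peaks that covered a start site were lost least often, 25.2% (1229 of 4869), and the share was already 63.6% for peaks that ended 1 to 1000 bp from a start site. Farther out it stayed between 74.7% and 80.8% in each distance class up to beyond 50 kb. Gains followed a similar but flatter course: 21.0% of the A-485 peaks that covered a start site had no DMSO peak, against 47.3% of those at 1 to 1000 bp and 43.9% to 50.7% farther away.

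**Figure D1:**
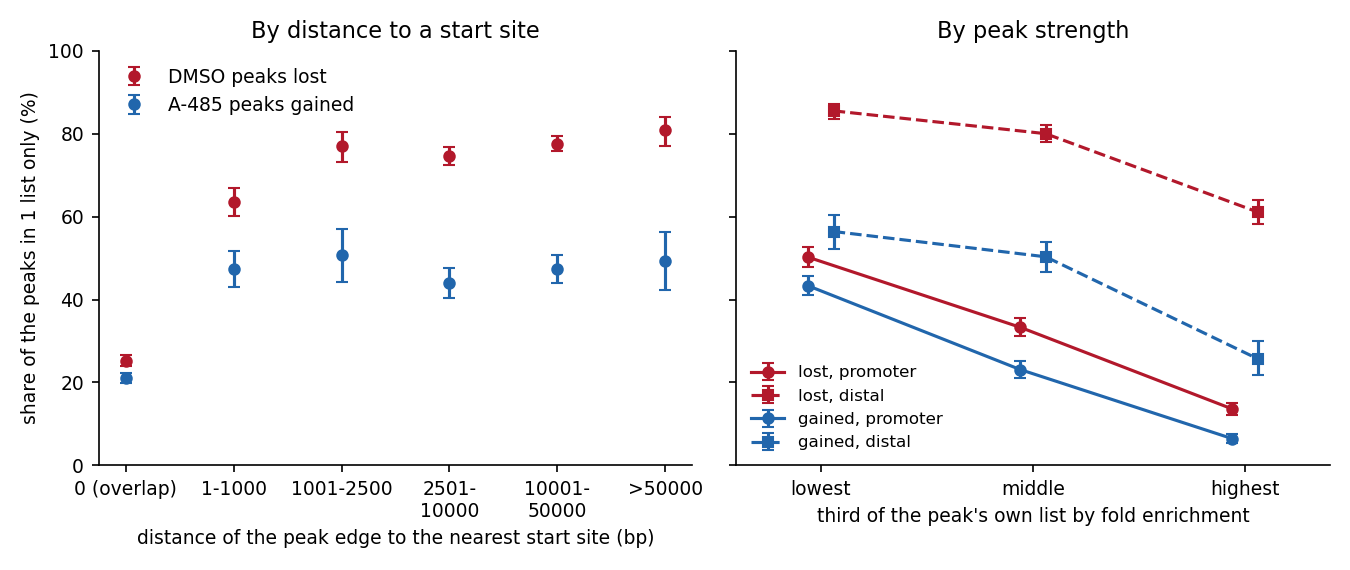
Left, the share of DMSO peaks lost and of A-485 peaks gained (y axis, percent) by distance from the nearest start site (x axis, bp); right, the same shares in 3 equal groups of fold enrichment within the peak's own list, with promoter peaks as circles on solid lines and distal peaks as squares on dashed lines. Bars are 95% Wilson intervals; the lost share rises from 25.2% at start sites to 80.8% beyond 50 kb, and falls with strength in promoter and in distal peaks.

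The kind of start site went with the lost share as well. Among DMSO peaks covering a start site, 24.0% of those at protein-coding transcripts (1106 of 4612) were lost, against 48.9% of those at long non-coding RNAs (86 of 176) and 43.8% of those at pseudogenes (21 of 48). Base composition separated promoters further. CpG-rich promoter peaks, with at least 50% GC and an observed over expected CpG ratio of at least 0.6, were lost in 21.6% of cases (911 of 4213), and the other promoter peaks in 56.8% (830 of 1461). Distal peaks showed the same order, with 45.4% of the 194 CpG-rich ones lost and 78.4% of the rest. CpG-rich peaks made up 19.5% of lost, 68.9% of shared and 45.7% of gained peaks, so the gained set lay between the others in this respect. The middle of a lost peak was intergenic in 50.4% of cases, in an intron in 33.2% and in an exon in 16.4%, against 40.1%, 19.7% and 40.2% of shared peaks.

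Lost peaks were weaker and narrower than the peaks that stayed. Median fold enrichment was 6.44 in lost peaks (quartiles 5.63 and 7.37) and 7.54 in shared DMSO peaks (6.37 and 8.98), and median width was 387 bp against 580 bp. Gained peaks had a median fold enrichment of 6.19 against 7.25 in shared A-485 peaks, and a width of 452 bp against 652 bp. Fold enrichment took part in making the lists, so these values describe the classes and do not test them. Promoters and distal sites differed at each strength. In the weakest, middle and strongest of 3 equal groups of the DMSO list (limits 6.23 and 7.64), promoter peaks were lost in 50.2%, 33.3% and 13.6% of cases, and distal peaks in 85.5%, 80.0% and 61.1%. Among gained peaks the corresponding promoter shares were 43.3%, 23.1% and 6.44%, and the distal ones 56.4%, 50.3% and 25.7%.

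**Figure D2:**
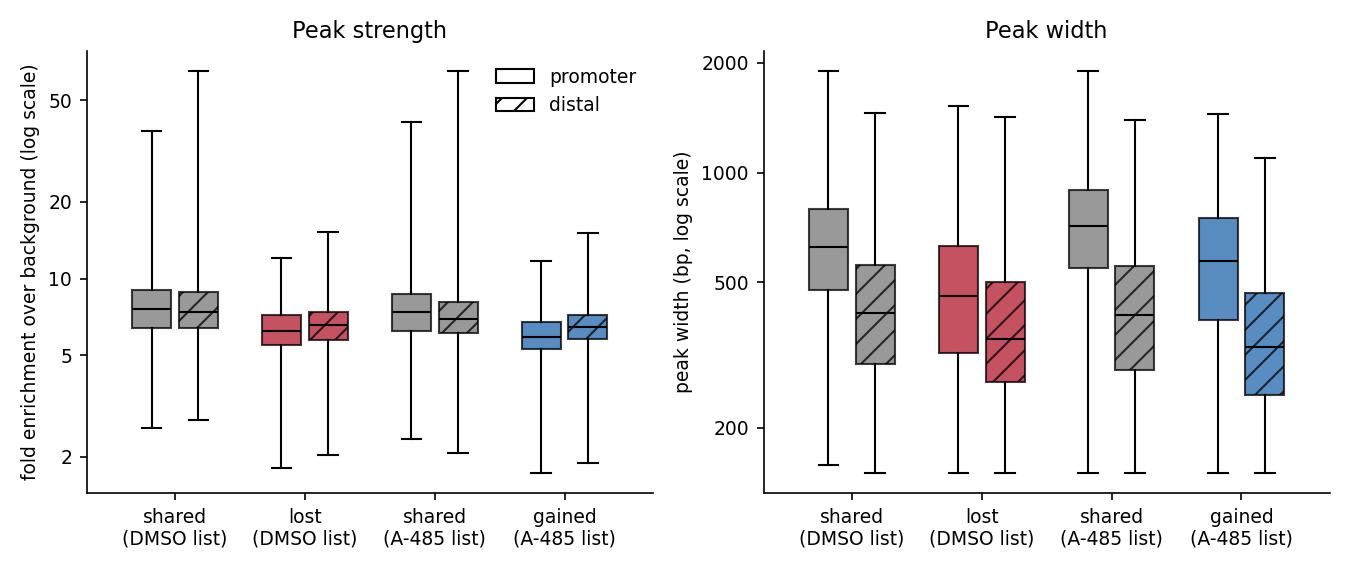
Fold enrichment (left) and width in bp (right), both on log axes, of shared DMSO, lost, shared A-485 and gained peaks, with promoter peaks in plain and distal peaks in hatched boxes. Boxes span the quartiles with a line at the median, and whiskers reach the lowest and highest peak; lost promoter peaks have a median fold enrichment of 6.25 against 7.58 for shared ones, and lost distal peaks 6.58 against 7.42.

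Where 1 DMSO peak met 1 A-485 peak (4920 pairs), the strengths were close. The fold enrichment in A-485 was a median 0.967 times that in DMSO (quartiles 0.838 and 1.11), and 43.4% of pairs were higher in A-485. Only 85 pairs were over 1.5-fold higher in A-485 and 209 over 1.5-fold lower. The median ratio was 0.972 at promoters and 0.935 at distal sites. Shared promoter peaks were wider in A-485 in 64.8% of pairs (median width ratio 1.08), and distal ones in 47.4% (0.990). The enrichments of the lists come from separate libraries of unknown depth and were not rescaled to each other. Few lost peaks had an A-485 peak close by: 1.51% (79) lay within 500 bp of an A-485 peak, and the median gap to the nearest was 70525 bp. At the lowest reproducibility score kept in the lists, 540, there were 21 lost peaks with fold enrichments of 4.03 to 7.66 and 11 gained peaks with 4.13 to 7.01, while the smallest overlap that made a peak shared was 3 bp.

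Among protein-coding genes whose names are not Gm or Rik numbers, the strongest shared promoter peaks included genes with roles in mitochondria and centrioles. Foxred1, an assembly factor of mitochondrial complex I, had a fold enrichment of 16.5 in DMSO and 11.4 in A-485. Mterf1a, a mitochondrial transcription termination factor, had 16.3 and 14.6, and Poc5, a centriole protein, had 16.1 and 11.3. Cggbp1, which binds CGG repeats, had 15.9 and 13.2, and Lcorl, AW549877 and Tmem123 lay between 15.4 and 15.7 in DMSO and between 11.4 and 14.2 in A-485. Of these 8 leading shared promoters, Cbwd1 alone was higher in A-485. Ranking by the DMSO value favours this direction by itself, and of all shared promoter pairs 44.2% were higher in A-485. All 8 were CpG-rich and had a peak in both early 2-cell lists.

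The strongest lost promoter peaks were a mixed set and reached a fold enrichment of 12.1. Zfp54, a zinc finger gene (chr17:21423100-21423639, exonic at its middle), and Tspyl5, of the TSPY-like family, each stood at 12.1. Pdcl2, a phosducin-like gene of germ cells, followed at 11.8. Siae (11.0), Fkbp7 (10.9), Mrpl16, a mitochondrial ribosomal protein (10.8), and Ankrd22 (10.8) came next. Of these 7, Zfp54 and Ankrd22 had an early 2-cell peak in DMSO and not in A-485, Siae in both, and Tspyl5, Pdcl2, Fkbp7 and Mrpl16 in A-485 and not in DMSO.

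Gained promoter peaks were led by Larp4b, an RNA-binding protein (chr13:9093607-9094278, fold enrichment 11.7), Aadat, an enzyme of lysine and tryptophan breakdown (11.3), and Scfd1, of transport between the endoplasmic reticulum and the Golgi (10.7). Maea, a subunit of a ubiquitin ligase, stood at 10.1, Rprm at 9.96, Arfgef3 at 9.76, the centriole gene Spice1 at 9.67 and Xlr3a at 9.65. An early 2-cell A-485 peak was present at all of them except Aadat, and a DMSO one at Larp4b, Scfd1, Maea and Rprm.

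Distal peaks reached the largest enrichments of all. The strongest shared ones lay 12853 bp upstream of Abcb11 (65.0 in DMSO, 65.2 in A-485) and 35411 bp upstream of Pak3 (57.5 and 56.9), followed by peaks near Ric8b (25.2 and 29.7), Lars2 (22.9 and 21.6) and Cldn34d (22.6 and 25.9). The Abcb11 peak matched mitochondrial DNA, as did 16 DMSO peaks in all, of which 0 were lost (Wilson upper limit 19.4%). The strongest lost distal peak lay in an intron, with the nearest start site that of Pcnx2 at 4867 bp (chr8:125778995-125779268, fold enrichment 15.3), was 93.4% repeat-masked, and had an early 2-cell peak in DMSO and not in A-485. Lost peaks near Slc41a2, a magnesium transporter, and Slc13a1, a sulfate transporter, both stood at 12.7, and those near Xkr6 and Tspyl2 at 12.4. The gained distal peaks named here stood at 10.2 near Cfap126, 10.1 near Fam107a and 9.57 near Psen2, the last with a CTCF core. Another at 10.1 lay in an intron with the start site of Sdk1 as the nearest, 128222 bp away. As whole classes, gained and lost distal peaks had similar medians (6.49 and 6.58).

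The sequence around the summit (200 bases) differed between lost and shared distal peaks. The homeobox core GGATTA, searched on both strands like every motif, stood in 17.5% of lost distal peaks (16.2 to 18.8), in 8.32% of shared and 7.71% of gained ones, and in 7.99% of 1323726 genome windows of the same length, 1 taken every 2000 bp. The NR5A site TCAAGGNCA followed the same pattern at a lower level, in 3.21% of lost, 0.853% of shared and 0.746% of gained distal peaks and 1.69% of genome windows. The motif AGATAAG of GATA factors stood in 4.17%, 2.03% and 2.86%, against 2.94% of windows. The CACCC box stood in 12.5%, 8.96% and 5.10%, against 3.17% of windows. CTCF went the other way. Its core stood in 4.43% of lost, 8.96% of shared and 13.7% of gained distal peaks, and in 0.0492% of genome windows. In all, 14 motifs were searched. Among them the GC box stood in 12.8% of lost, 22.1% of shared and 10.3% of gained distal peaks. AP-1 sites (TGANTCA) stood in 6.48%, 5.44% and 5.22%. The rest are not given for distal peaks. A match describes the letters in a window and does not show that a factor was bound.

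Read from the side of the motif, distal DMSO peaks with GGATTA were lost in 87.5% of cases (544 of 622) and those without it in 74.9% (2571 of 3431). The gap was present at each strength: 90.8% against 84.5% in the weakest of the 3 groups, 90.8% against 78.0% in the middle one and 76.4% against 58.8% in the strongest. With the NR5A site 92.6% were lost (100 of 108) and without it 76.4%. Peaks with the CTCF core were lost less often, 62.2% (138 of 222) against 77.7%, again within each strength group (69.1% and 86.5%, 65.1% and 80.9%, 47.3% and 61.9%). Of A-485 distal peaks with the CTCF core 57.0% (110 of 193) were gained, against 44.8% of the others.

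**Figure D3:**
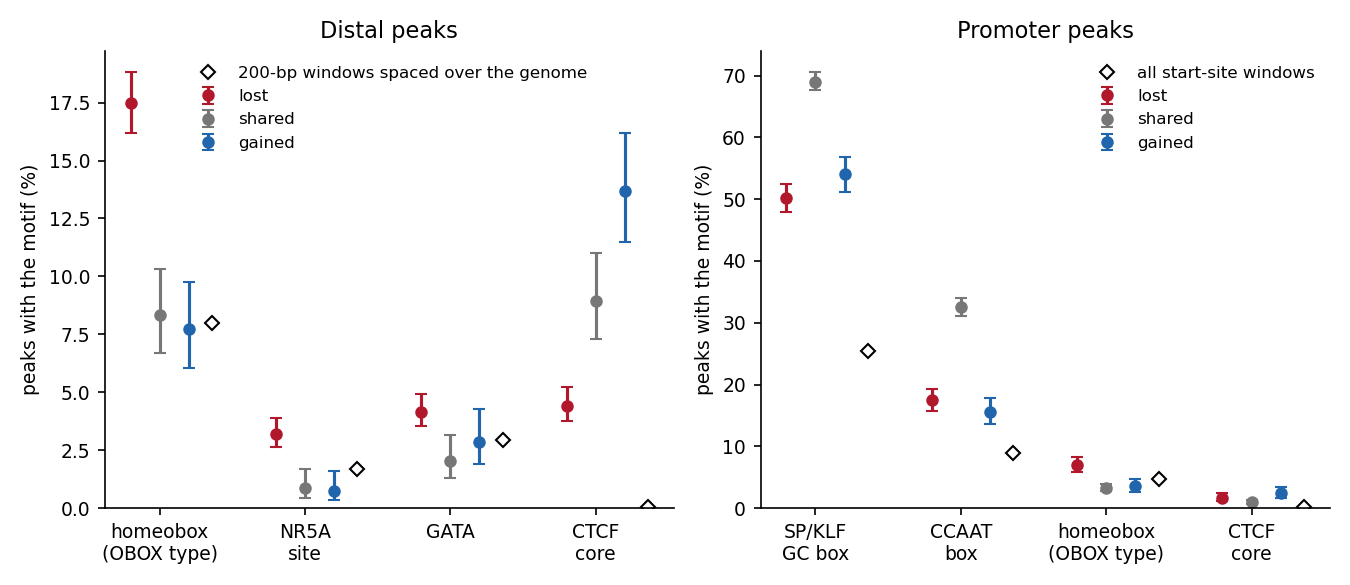
Share of lost, shared and gained peaks (y axis, percent) with each motif within 200 bases around the summit, for distal and for promoter peaks; bars are 95% Wilson intervals and diamonds give the share of 200-bp genome windows taken every 2000 bp (distal panel) or start-site windows (promoter panel). GGATTA stands at 17.5% in lost distal peaks and near the genome share of 7.99% in shared and gained ones, and the CTCF core rises from 4.43% to 13.7% from lost to gained.

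Many of these motif copies lay in repeats. Restricted to bases that the genome's repeat masking leaves in capitals, GGATTA stood in 9.02% of lost, 5.33% of shared and 4.48% of gained distal peaks. The NR5A site stood there in 1.35%, 0.533% and 0.373%. The genome shares given above count all bases, and none was computed for unmasked bases alone. Distal peaks with an unmasked copy of GGATTA were lost in 84.9% of cases (281 of 331) and those with masked copies only in 90.4% (263 of 291). In the strongest group the values were 69.0% and 86.7%, against 58.8% without the motif. Over 50% masked distal peaks were lost in 85.2% of cases (375 of 440), and the others in 75.8%. The few promoter peaks that were over 50% masked were lost in 75% of cases (45 of 60), against 30.2% of the rest. How reads that match several repeat copies contribute to these peaks was not tested.

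At promoters the motifs of housekeeping genes were rarer in lost than in shared peaks. The GC box GGGCGG, bound by SP and KLF factors, stood in 50.2% of lost, 69.0% of shared and 54.0% of gained promoter peaks, and in 25.5% of all start-site windows. The CCAAT box CCAATC, bound by NF-Y, stood in 17.5%, 32.5% and 15.6% (start sites 8.92%). GGATTA was again most frequent in lost promoter peaks, with 7.01% against 3.33% and 3.55% (start sites 4.74%). Promoter peaks with a GC box were lost in 24.4% of cases and those without in 41.6%. The CTCF core can itself contain a GC box, so the motifs are not fully separate.

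The early 2-cell lists, made from other libraries, show which of these peaks were found again after the first division. The DMSO list of that stage held 27693 peaks and the A-485 list 13712, yet the smaller A-485 list covered more of every late 1-cell class. Of lost promoter peaks, 37.2% had an early 2-cell peak in DMSO and 59.3% in A-485. For gained promoter peaks the shares were 49.6% and 71.8%, and for shared ones 79.1% and 92.6%. Distal peaks were found again less often: lost ones in 14.3% (DMSO) and 18.8% (A-485), shared ones in 34.8% and 58.5%, and gained ones in 14.6% and 31.8%. A lost distal peak was in neither early 2-cell list in 72.4% of cases. Over all distances, 59.4% of lost, 39.2% of gained and 10.9% of shared ones were in neither.

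**Figure D4:**
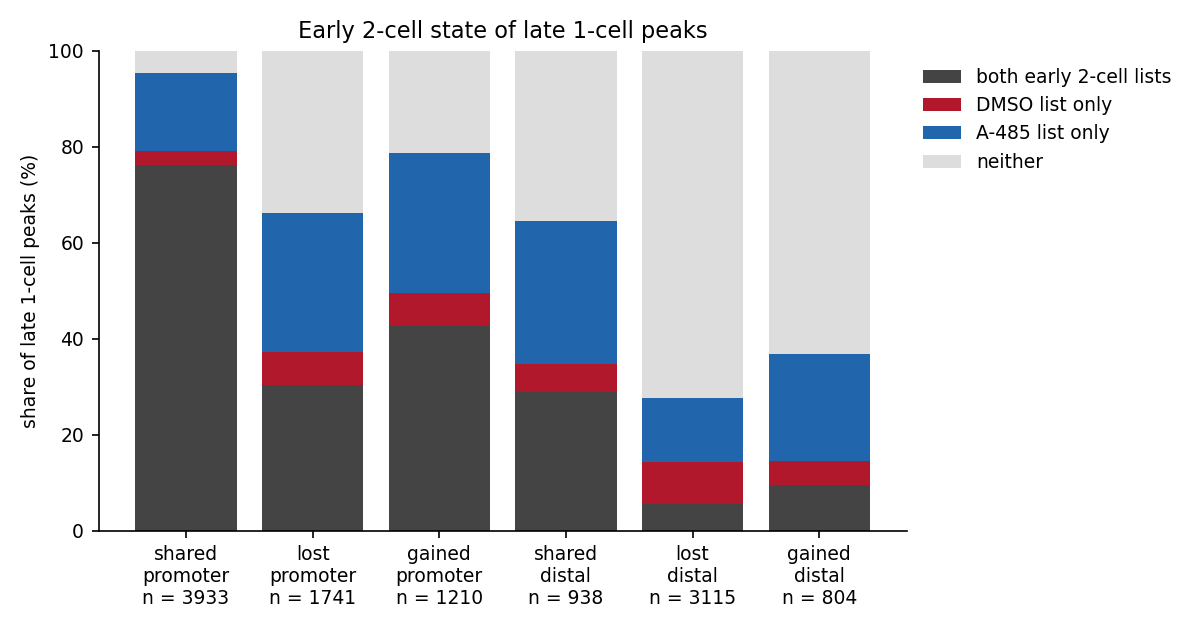
Stacked bars of the early 2-cell state (both lists, DMSO only, A-485 only, neither) as a share in percent of lost, shared and gained late 1-cell peaks, split into promoter and distal. Neither is the largest part of lost distal peaks (72.4%) and a small part of shared promoter peaks (4.50%).

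Lost distal peaks with GGATTA went against this order. Of the 544, 34.2% (186) had an early 2-cell peak in DMSO and 14.5% (79) in A-485, whereas lost distal peaks with none of GGATTA, the NR5A site and the CTCF core had 9.48% (226 of 2383) and 19.1% (456). Lost distal peaks with the NR5A site showed 38 and 10 of 100, and those with both motifs 26 and 7 of 40. The pattern was larger in repeats. Where GGATTA lay only in masked bases, 53.6% (141 of 263) had a DMSO early 2-cell peak and 15.2% (40) an A-485 one, and where it lay in unmasked bases the shares were 16.0% (45 of 281) and 13.9% (39). For the NR5A site the masked-only peaks had 33 and 7 of 58, and the unmasked 5 and 3 of 42. Without regard to motif, lost distal peaks over 50% masked had 33.3% in DMSO and 12.5% in A-485 (125 and 47 of 375), and the others 11.7% and 19.7%. Lost peaks with the CTCF core stood at 15.9% in DMSO and 37.7% in A-485.

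Genes were then sorted by their promoter peaks. Of 21951 protein-coding genes, 4338 had a promoter peak in both lists, 1407 in DMSO only and 1080 in A-485 only, so 24.5% of the genes with a DMSO promoter peak lacked one in A-485 and 19.9% the reverse. The gene lists described next were chosen with earlier results of these data known, and are given as counts without a test.

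Lists of protein synthesis and RNA processing are read against those 2 shares. Of 91 cytoplasmic ribosomal protein genes, 36 had a promoter peak in both lists, 3 in DMSO only (Rpl11, Rpl39l and Rps16) and 14 in A-485 only, among them Rpl35a with a fold enrichment of 7.52, Rps4x with 6.53 and Rplp2 with 4.55. Splicing factors were similar, with 27 of 65 in both, 2 in DMSO only (Prpf3, a tri-snRNP protein, 7.14, and Snrpa1, of the U2 particle, 6.72) and 14 in A-485 only, such as Snrnp70 of the U1 particle (7.63), Sf3b1 of the U2 particle (6.80) and Srsf1 (5.21). Of the genes with a DMSO peak, 7.69% of ribosomal protein and 6.90% of splicing genes lacked an A-485 one, and of those with an A-485 peak 28% and 34.1% lacked a DMSO one. Ribosome biogenesis factors had 41 of 98 in both, 11 in DMSO only (21.2% of those with a DMSO peak) and 6 in A-485 only (12.8% of those with an A-485 peak). Proteasome subunits had 15 of 39 in both and 5 in each single class, tRNA synthetases 17 of 35, 6 and 4, and RNA polymerase II, TFIID and Mediator subunits 29 of 61, 5 and 6. In the same order, 25%, 26.1% and 14.7% of those with a DMSO peak lacked an A-485 one. The reverse shares were 25%, 19.0% and 17.1%.

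Replication-dependent histone genes had 24 of 70 in both lists, 8 in DMSO only and 5 in A-485 only. These were 25% of those with a DMSO peak and 17.2% of those with an A-485 peak, near the 24.5% and 19.9% of all protein-coding genes. Several of them face each other over a shared promoter and so share 1 peak, such as Hist1h2ah and Hist1h2bk (6.95 in DMSO) or Hist1h2bh and Hist1h3f (7.09 in A-485). At the early 2-cell stage 12 of these 13 genes had a DMSO promoter peak and 0 of 13 an A-485 one. Of the 24 genes with a late 1-cell peak in both lists, 17 had an early 2-cell DMSO peak and 5 an A-485 one.

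Of all protein-coding genes, 68.9% had no late 1-cell promoter peak. The share was 92.1% in the multi-copy 2-cell gene families, 62.2% in single-copy genes of genome activation and 75.5% in oocyte and maternal-effect genes. Among 101 genes listed for the multi-copy 2-cell families 2 had a peak in both lists, 5 in DMSO only and 1 in A-485 only. The single-list shares were 71.4% of the 7 with a DMSO peak and 33.3% of the 3 with an A-485 peak. All protein-coding genes had 24.5% and 19.9%. Pramel1 stood at 5.83 and 6.21 and Pramef8 at 7.09 in A-485 only. Eif1ax, a general translation initiation factor gene that this list counts, stood at 7.52 in DMSO only. Whether each listed gene belongs to a multi-copy family was not tested. Of 45 single-copy regulators and targets of genome activation, 14 were in both. These included Klf5 (9.93 in DMSO, 6.59 in A-485), Klf6 (10.2 and 8.01) and Nfya, a subunit of NF-Y (9.20 and 8.24). Dppa3, a maternal protein that shields the maternal genome from demethylation (4.70), and Tead4, a trophectoderm factor (4.69), had a peak in DMSO only, and Smarca4, the ATPase of the BAF remodeller, in A-485 only (5.42). Of 49 oocyte and maternal-effect genes, 7 were in both, 4 in DMSO only (Kit, Figla, Nlrp2 and Dazl) and 1 in A-485 only (Zfp36l2). Of genes with a DMSO peak, 12.5% of the 16 single-copy and 36.4% of the 11 oocyte and maternal-effect ones lacked an A-485 peak. The reverse shares were 6.67% of 15 and 12.5% of 8. Npm2, the chaperone that loosens sperm chromatin, had 8.18 in DMSO and 4.23 in A-485.

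Among 32 histone acetyltransferases and deacetylases, 2 of the 13 genes with a DMSO promoter peak lacked an A-485 one and 2 of 13 the reverse (15.4% each, against 24.5% and 19.9% of all protein-coding genes). A promoter peak stood in both lists at 11, among them Hdac1 (7.46 in DMSO, 8.65 in A-485) and Hdac2 (7.21 and 9.98). Hat1 (7.49) and Hdac11 had one in DMSO only. Ep300, which encodes p300 itself, had one in A-485 only (6.30), as did Kat5 (5.28), and Crebbp, which encodes CBP, in neither. Ep300 RNA did not reach the 2-fold limit at the early 2-cell stage (log2 difference A-485 minus DMSO -0.47, edgeR adjusted p 0.000962).

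Developmental genes were mostly without a peak. Of 39 Hox genes 37 had no promoter peak, and Hoxd1 had one in DMSO only. Of 85 transcription factors of later lineages 5 were in both, 5 in DMSO only (among them Neurog2, Tbx20, Irx1 and Irx2) and 1 in A-485 only (Tbx18). Polycomb targets listed by the study had 31 of 1907 in both, 23 in DMSO only and 17 in A-485 only. Of genes with a DMSO peak, 50% of the 10 lineage factors and 42.6% of the 54 Polycomb targets lacked an A-485 one. The reverse shares were 16.7% of 6 and 35.4% of 48, and all protein-coding genes had 24.5% and 19.9%. Among 20 imprinting control regions, at the coordinates that the study lists, none overlapped a late 1-cell DMSO peak. An A-485 peak overlapped 2, the maternally methylated Peg3 region (8.04) and the paternally methylated Dlk1-Gtl2 region (7.13). Both were found again in the early 2-cell A-485 list only. The listed Kcnq1ot1 region overlapped no peak, yet the Kcnq1ot1 gene had a promoter peak in both late 1-cell lists (7.58 in DMSO, 5.54 in A-485). Which genome build the listed coordinates follow was not tested, so these counts are uncertain. Olfactory and vomeronasal receptors, silent outside sensory neurons, had a peak in 2 of 1435 genes. Of the 8 oocyte markers Gdf9 had a peak in both lists and Dppa3 in DMSO only, none of the cumulus (8), sperm (6) and erythroid (4) markers had one, and of 4 fibroblast markers Col1a1 had one in DMSO only (7.13). In a longer list of 13 sperm genes, 3 had a peak: Odf2, of the sperm tail, in both lists (5.41 in DMSO and 5.51 in A-485), Tssk6, a testis kinase, in DMSO only (4.98), and Zpbp, a protein of the sperm acrosome, in A-485 only (8.19).

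RNA from the same culture was compared by promoter class with edgeR's quasi-likelihood test. Calls needed an adjusted p (Benjamini-Hochberg) under 0.05, a change of at least 2-fold and, in DMSO or in A-485, a mean of 1 FPKM or more. In zygotes 12 of 18258 genes fell (0.0657%) and 1 rose (0.00548%), of which 1 fallen gene had a promoter peak in both lists, 1 in DMSO only and 0 in A-485 only. The zygote counts depended on single libraries: 24 genes fell without A-485 replicate 1 and 45 without A-485 replicate 2, and 6 to 11 rose when any 1 of the 4 libraries was left out. In early 2-cell embryos 1649 of 20872 genes fell (7.90%) and 84 rose (0.402%). Without DMSO replicate 2 there were 126 risen genes. The loss of a late 1-cell promoter peak did not go with a larger share of fallen genes. Those with a DMSO-only promoter peak fell in 7.32% of cases (104 of 1420) and those with an A-485-only peak in 8.95% (99 of 1106). Those with both fell in 9.35% (427 of 4569) and those with none in 7.56%. Calls needed 1 FPKM, which 49.0% of genes with no peak had in DMSO, against 68.6%, 74.1% and 80.3% of the DMSO-only, A-485-only and both classes. Among genes with at least 1 FPKM in DMSO, 15.4% of those with no peak fell. The shares there were 10.7% (DMSO only), 12.1% (A-485 only) and 11.6% (both). Over all genes tested, median log2 differences (A-485 minus DMSO) lay between -0.03 and 0.02 in all 4 classes. Genes nearest to a lost distal peak fell in 7.97% of cases (114 of 1431), to a shared one in 8.22% and to a gained one in 5.66%. In bulk samples, fewer embryos with a transcript and less of it per embryo cannot be told apart.

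The share of fallen genes differed more with the state of the promoter at the early 2-cell stage. Of DMSO-only genes whose early 2-cell promoter peak was also in DMSO only, 19.7% fell (25 of 127), against 9.30% of those with both early 2-cell peaks, 4.26% of those with an A-485 one only and 2.53% of those with neither. Of A-485-only genes with both early 2-cell peaks 12.7% fell (73 of 575). These shares are descriptive, since the early 2-cell peaks and RNA come from the same treatment at the same stage.

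The genes with a lost promoter peak whose RNA fell most at the early 2-cell stage were nearly silent in A-485. Gm21762 (promoter fold enrichment 8.56 in DMSO) had 60.2 and 59.5 FPKM in the DMSO libraries and 0 in both A-485 libraries, at least 176-fold lower against a floor of 3 counts per library. Gm2016 (8.14) had 77.6 and 68.3 FPKM against 0.270 and 0.170 (log2 difference -8.33 ± 0.22 SE, adjusted p 2.41e-10 by edgeR). Gm5662 (10.3), whose promoter is printed above, had 111 and 118 against 0.450 and 0.570 (-7.74 ± 0.15, adjusted p 6.06e-11 by edgeR). In each of these the DMSO and A-485 libraries did not overlap. Zfp54 (12.1) had 35.6 and 35.3 FPKM against 0.320 and 0.110 (-7.28 ± 0.27), and AU015228 (12.0) had 73.9 and 60.9 against 0.980 and 0.450 (-6.53 ± 0.27). The Gm genes belong to families of near-identical copies, so the split of reads among members is uncertain.

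Genes with a gained late 1-cell promoter peak could fall at the early 2-cell stage too. Prmt6, an arginine methyltransferase (7.16 in A-485), had 15.2 and 11.6 FPKM in DMSO against 0.380 and 0.480 in A-485 (log2 difference -4.86 ± 0.28 SE, adjusted p 1.12e-07 by edgeR). Rbm10, a splicing regulator (6.92), had 12.0 and 10.9 against 0.610 and 1.37. Prps1, an enzyme of nucleotide synthesis (5.79), had 38.6 and 34.7 against 6.21 and 2.08. All 3 had an early 2-cell promoter peak in both lists, and none was called in zygote RNA (edgeR adjusted p 0.964 to 0.997). Arl4d, a small GTPase (5.07), had 13.5 and 13.1 FPKM against 1.32 and 1.02, and Hes1, a target of Notch signalling (6.26), had 20.9 and 26.4 against 4.37 and 1.94. Of the 14 ribosomal protein genes with an A-485-only peak 10 fell, such as Rps26 (log2 difference -2.98), Rpl12 (-2.44) and Rpl23a (-2.40). Of those with both peaks 19 of 36 fell, of those with neither 20 of 38 and of those with a DMSO-only peak 0 of 3. These class sizes include genes that were not tested. In the whole list 49 of the 89 genes tested fell, against 7.90% of all genes tested. Of all tested genes with an A-485-only peak 8.95% fell. Ribosomal protein genes have many processed pseudogenes that can share their reads, so single values are uncertain.

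**Figure D5:**
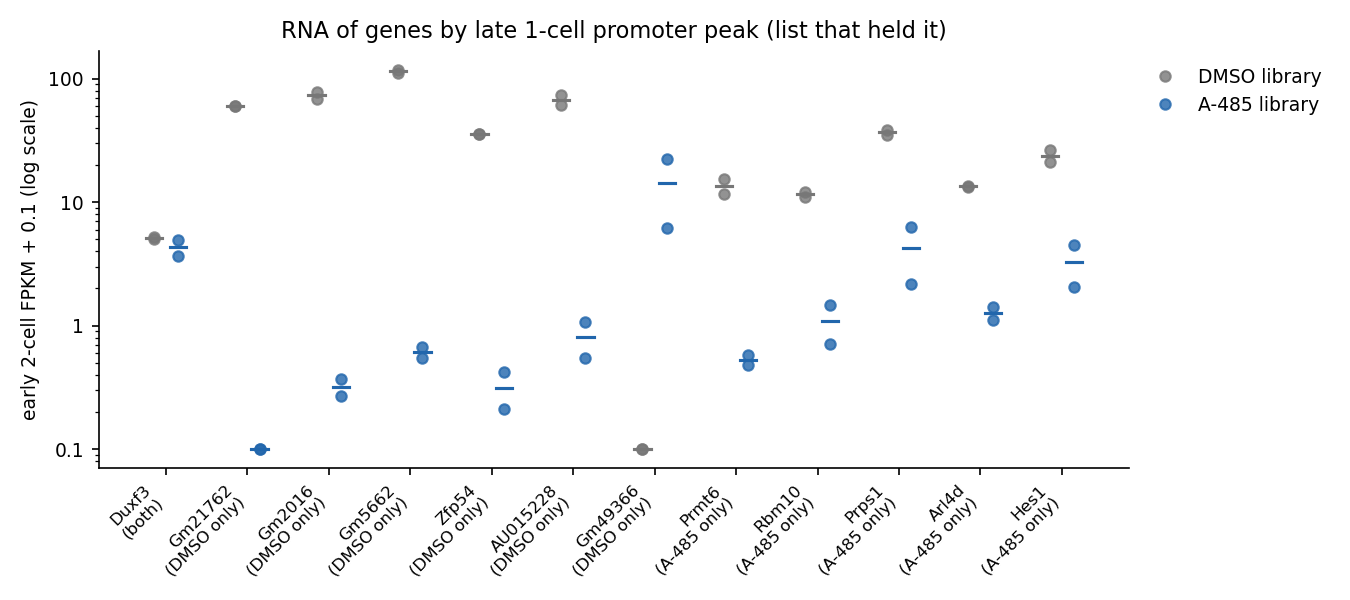
Early 2-cell RNA of named genes in FPKM + 0.1 on a log axis, with 1 dot per library and a dash at the mean of DMSO and of A-485. The genes with a lost or gained promoter peak are lower in both A-485 libraries except Gm49366, and Duxf3, with a shared peak, lies at 4.88 and 3.57 FPKM in A-485, close below the 5.16 and 4.92 of DMSO.

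The study defined minor ZGA genes of the zygote with DRB, an inhibitor of transcription elongation, in libraries not analysed here. Of the 30, 4 had a promoter peak in both lists (Duxf3, Kcnq1ot1, Ikzf5 and Hist2h3c1), 3 in DMSO only and 0 in A-485 only. The DMSO-only genes were 42.9% of the 7 with a DMSO peak, against 24.5% of all protein-coding genes. Duxf3, which encodes DUX, had a stronger promoter peak in A-485 (11.5) than in DMSO (7.51), while its zygotic RNA was 7.23 and 6.81 FPKM in DMSO and 0.220 and 0.270 in A-485 (log2 difference -4.67 ± 0.29 SE, adjusted p 7.29e-06 by edgeR). At the early 2-cell stage Duxf3 had 5.16 and 4.92 FPKM in DMSO against 4.88 and 3.57 (-0.24, adjusted p 0.667 by edgeR). Kcnq1ot1 had promoter peaks of 7.58 and 5.54, Ikzf5 of 13.8 and 8.23, and Hist2h3c1 of 6.36 and 5.44, in DMSO and A-485.

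The 3 members with a DMSO-only peak did not share a direction. Zfp353-ps, a pseudogene (6.32), fell from 43.3 and 43.6 FPKM to 2.70 and 1.23 at the early 2-cell stage (-4.45 ± 0.27 SE, adjusted p 2.40e-07 by edgeR). Gm49366 (5.79) rose there, from 0 in both DMSO libraries to 22.3 and 6.02 FPKM, at least 23.9-fold higher. Adam1a, of the ADAM metalloprotease family (6.69), also rose (2.29 ± 0.38, adjusted p 0.00141 by edgeR). In the longer list of early 2-cell minor ZGA genes, 108 of 557 had a promoter peak in both lists, 24 in DMSO only and 24 in A-485 only. Each single class made up 18.2% of the genes with a peak in its list, against 24.5% and 19.9% of all protein-coding genes.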

How the data were processed

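The 2 late 1-cell and 2 early 2-cell ATAC-seq peak lists and the RSEM tables of zygote and early 2-cell RNA-seq (DMSO and A-485, 2 replicates each) were used, with groups taken from the sample titles. For ATAC-seq the authors ran the ENCODE pipeline and kept peaks reproducible between replicates, 1 list per condition. These deposited lists give a fold enrichment (a ratio over background), a −log10 q, and a reproducibility score from 540 to 1000. ATAC-seq depth is not in the lists. For RNA the authors used Trimmomatic 0.39, STAR 2.7.8a and RSEM 1.3.1, and the deposited values are expected counts and FPKM.

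Positions were compared with GRCm38 and GENCODE M21, the build of the files (0 peaks past a chromosome end). Sequences and repeat masking were read from that genome, and motifs were counted in 200 bases around the strongest summit. Expected counts were rounded, genes with under 10 counts over 4 libraries were left out, and edgeR 4.0.16 (TMM, quasi-likelihood, Benjamini-Hochberg) was run in R 4.3.3. Depth was 29076423 to 32585957 expected counts in zygotes and 21496084 to 23864392 in early 2-cell embryos. Tests were checked on simulated data. Whether replicates came from separate collections is not stated, so p-values measure only the spread between these libraries.

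Named peaks were the 8 promoter and 5 distal peaks of largest fold enrichment per class (protein-coding, with a gene name). Named genes were the listed minor ZGA, marker and 2-cell genes with a peak, and up to 5 called genes per direction with a DMSO-only or A-485-only peak, mean FPKM of at least 10. Other genes of the lists were named after their values were seen. The members and lists were chosen with earlier results of these data known. Some peaks and genes that these rules name are not reported here. Alternatives were other overlaps, thresholds, limits and start sites for peaks, and DESeq2 1.42.0, library totals, no filters, a replicate block and left-out libraries for RNA.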

Additional observations from a re-analysis of the deposited data

How the results depend on the processing

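The late 1-cell lists pool their replicates, so no replicate could be left out of a peak result, and their depth limits what counts as lost. With at least 50% of a peak covered, 52.5% of DMSO peaks were lost, 34.9% of A-485 peaks gained and 32.3% of promoter peaks lost, and the median fold enrichment of gained peaks was 6.22. When a peak within 500 bp counted as shared, 28.8% were gained. With the DMSO list reduced to its 7094 strongest peaks, the size of the A-485 list, the lost share was 43.8% and the gained share 43.6% (promoter lost 23.0%, distal 72.7%, median lost width 406 bp, median distance 6867 bp). In the peaks above the median fold enrichment of their list these shares were 53.6%, 33.3%, 37.0% and 78.8%, and at a score of at least 830 they were 46.3%, 25.8%, 33.2% and 78.8%. In both of these settings each list was cut before the overlap. A peak whose overlapping peak in the other list fell below the cut therefore counted as lost or gained. The strength groups given earlier were set against the whole other list instead. A promoter limit of 500 bp gave 28.6% lost, and protein-coding start sites only gave 26.8% at promoters and 75.2% at distal sites. Distal peaks were lost more often than promoter peaks in every one of these settings. How far the cuts account for the shifts was not tested.

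For zygote RNA, no filter gave 29 fallen and 10 risen genes, and DESeq2 0 risen. For early 2-cell RNA, risen genes numbered 137 without the count filter and 161 without the FPKM limit. Leaving out 1 library moved fallen zygote genes between 13 (without DMSO replicate 2) and 45 (without A-485 replicate 2; 24 without A-485 replicate 1) and risen ones between 6 and 11, and at early 2-cell fallen genes between 1487 and 1645 and risen ones between 72 and 126. Among genes with a promoter peak in both lists, DMSO only and A-485 only, fallen early 2-cell genes ranged from 368 to 441, 96 to 106 and 87 to 98. A lone library was assumed to vary like the others.

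The replicate numbers did not pair the samples (correlation of same-numbered deviations 0.0861 in zygotes and -0.0369 in early 2-cell embryos). With the replicate block, 32 zygote genes fell and 7 rose, and 1775 early 2-cell genes fell and 121 rose.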
